A study of Mus musculus with 4 samples.

Results

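Immediate-early genes are transcribed within minutes of a stimulus, before new protein is made. Here 10 of them were followed: Fos, Fosb and Fosl2 of the FOS family, Jun, Junb and Jund of the JUN family, the related Atf3, the zinc finger factor Egr1, Ier2, and Myc. They were chosen by name among 20642 gene symbols, and where a symbol had several transcripts, that with most promoter-proximal reads on average stands for it. All 10 were among the 12705 active genes, which had promoter-proximal reads and more than 4 normalized reads per kb of gene body. The choice was made with earlier results of these data known, so the members that differed are described and do not count as independent support.

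The assay was PRO-seq, a nuclear run-on in which polymerases engaged in isolated nuclei add biotinylated nucleotides, so that the labelled RNA shows where they sit. Livers of C57BL/6 mice were taken at day 14 after birth and frozen at once. The WT mice carried the Alb-Cre transgene with intact Hdac3 (Alb-Cre+ Hdac3+/+), and the KO mice carried the same transgene with Hdac3 fl/- or fl/fl, so that Cre was present in both groups. Alb-Cre is driven by the albumin promoter, which acts in cells of the hepatocyte lineage, and other liver cells should keep the fl allele intact. The paper calls the minus allele a null allele. In fl/- mice the other liver cells carry it too, so their Hdac3 dose may also differ from WT. Nuclei of several mice were pooled into 2 libraries per genotype (WT1, WT2, KO1 and KO2), and differences between single mice cannot be seen. Hdac3 encodes the catalytic subunit of a corepressor complex that removes acetyl groups from histones.

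FOS and JUN proteins have a basic region and a leucine zipper, and a FOS-JUN or JUN-JUN pair forms the factor AP-1. AP-1 binds the site TGANTCA, and pairs with ATF or CREB proteins prefer the related CRE, TGACGTCA. In many cells polymerase waits near the starts of these genes and is released into the gene body upon a signal, for which reason both regions are of interest. In liver, AP-1, EGR1 and MYC are known for their rapid induction after injury or partial hepatectomy.

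RefSeq sequences (GRCm38.p6, which is mm10) upstream of the transcription start site (TSS) were at hand for 7 of the 10 genes. The 3 genes whose gene bodies rose in KO are shown first, with Fos as a family member whose groups overlapped, and Jund as the gene with almost no promoter-proximal reads. The Jund window precedes its RefSeq TSS, and in GENCODE Jund-201 starts 1210 bp further downstream. Each sequence gives the 250 bases before the TSS, 5′ to 3′ on the strand of the gene. For Fosb, the RefSeq gene extends to position 19310118 with all its models, but the counted gene body of 6350 bp, with its end at 19302696, fits a start at 19310045, 73 bp downstream, which is the TSS used here. Capitals mark the letters TGACATCA, a CRE variant known from Jun, TGACG, which is one side of a CRE, CCAAT, GCGNGGGCG, an EGR site, and TATAA, each found on either strand.
Jun (chr4:95052223-95052472, minus strand): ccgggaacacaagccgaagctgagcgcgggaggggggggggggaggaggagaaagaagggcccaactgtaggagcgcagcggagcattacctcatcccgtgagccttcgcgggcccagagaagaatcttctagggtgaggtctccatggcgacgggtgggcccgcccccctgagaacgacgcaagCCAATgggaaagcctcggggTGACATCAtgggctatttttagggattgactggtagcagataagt
Fosb (chr7:19310046-19310295, minus strand): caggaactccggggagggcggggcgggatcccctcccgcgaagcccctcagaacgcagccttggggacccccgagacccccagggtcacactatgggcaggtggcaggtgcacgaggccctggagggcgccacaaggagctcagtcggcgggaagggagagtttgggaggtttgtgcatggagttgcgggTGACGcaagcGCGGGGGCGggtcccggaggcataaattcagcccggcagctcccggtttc
Atf3 (chr1:191183334-191183583, minus strand): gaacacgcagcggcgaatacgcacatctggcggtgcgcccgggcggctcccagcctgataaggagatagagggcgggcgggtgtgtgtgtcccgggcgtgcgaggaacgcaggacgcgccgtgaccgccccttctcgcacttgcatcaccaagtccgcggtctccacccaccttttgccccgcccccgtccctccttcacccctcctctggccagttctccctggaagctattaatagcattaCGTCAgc
Fos (chr12:85473640-85473889, plus strand): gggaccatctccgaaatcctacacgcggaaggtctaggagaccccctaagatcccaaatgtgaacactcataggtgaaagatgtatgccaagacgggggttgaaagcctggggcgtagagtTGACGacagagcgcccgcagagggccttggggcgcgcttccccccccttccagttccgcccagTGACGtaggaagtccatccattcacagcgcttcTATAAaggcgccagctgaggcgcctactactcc
Jund (chr8:70697489-70697738, plus strand): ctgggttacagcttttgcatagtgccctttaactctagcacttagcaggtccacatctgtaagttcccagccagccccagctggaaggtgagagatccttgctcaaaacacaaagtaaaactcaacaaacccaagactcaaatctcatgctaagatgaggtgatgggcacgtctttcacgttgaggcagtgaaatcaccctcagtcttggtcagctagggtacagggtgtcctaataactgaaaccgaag

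Among these windows, TGACATCA was found in Jun, 45 to 38 bases before the TSS, and in 2.93% of the 32817 promoter windows of the same length in the RefSeq table. TGACG was found in Fos, Fosb, Junb and Atf3, and in 17.7% of all windows. In Atf3 it lay on the opposite strand, 7 to 3 bases before the TSS. GCGNGGGCG was found in Fosb and Fosl2 and in 4.7% of all windows, CCAAT in Jun and Junb and in 33.8%, and TATAA in Fos and in 22.8%. The full CRE TGACGTCA (1.55% of all windows), the AP-1 site TGANTCA (6.75%) and the CArG box that serum response factor binds (1.47%) were found in none of the 7. TGACG lies within TGACGTCA, so those motifs are not independent, and it was added after the sequences had been read. The windows of Jun, Fosb, Atf3 and Fos held 58.4% to 68.8% G and C, and that of Jund held 47.6%. With the GENCODE start 1210 bp further downstream, the Jund window may not be the promoter in use, so its G and C share and its lack of these motifs carry that limit.

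The libraries held 16628518 to 26190040 reads on genes, with KO2 the shallowest. The authors' scaling factor was 1 in WT2, 1.06 in KO1, 1.15 in WT1 and 1.52 in KO2. The share of reads in promoter-proximal windows was 10.3% and 9.38% in WT and 13.6% and 17.0% in KO, so KO2 stood highest. The median log2 fold change of active genes, KO over WT, was accordingly 0.56 in promoter-proximal regions and -0.09 in gene bodies, and the changes of the members are read against these medians. Hdac3 itself had 665 and 648 normalized gene body reads in WT and 609 and 582 in KO (log2 fold change -0.14, limma adjusted p = 0.413). Which part of Hdac3 was deleted is not given in the sources used here, so its gene body value is no check of the labels.

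In gene bodies, 3 of the 10 members rose in KO (Fosb, Jun and Atf3) and none fell, where a call needed a limma adjusted p under 0.05 and a log2 fold change beyond 0.6. Of all 12705 active genes, 10.4% rose and 11.4% fell by the same rule. At an unadjusted p under 0.05, 1 member (Ier2) was lower in KO, and neither edgeR nor DESeq2 called a member down. The median log2 fold change of the members was 0.20. Both KO libraries lay above both WT libraries in 5 members, against 27.6% of active genes, and below both in 1 member, against 42.8%. Without the filter on activity, which brings in many genes with few reads, none of the members was called.

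**Figure D1:**
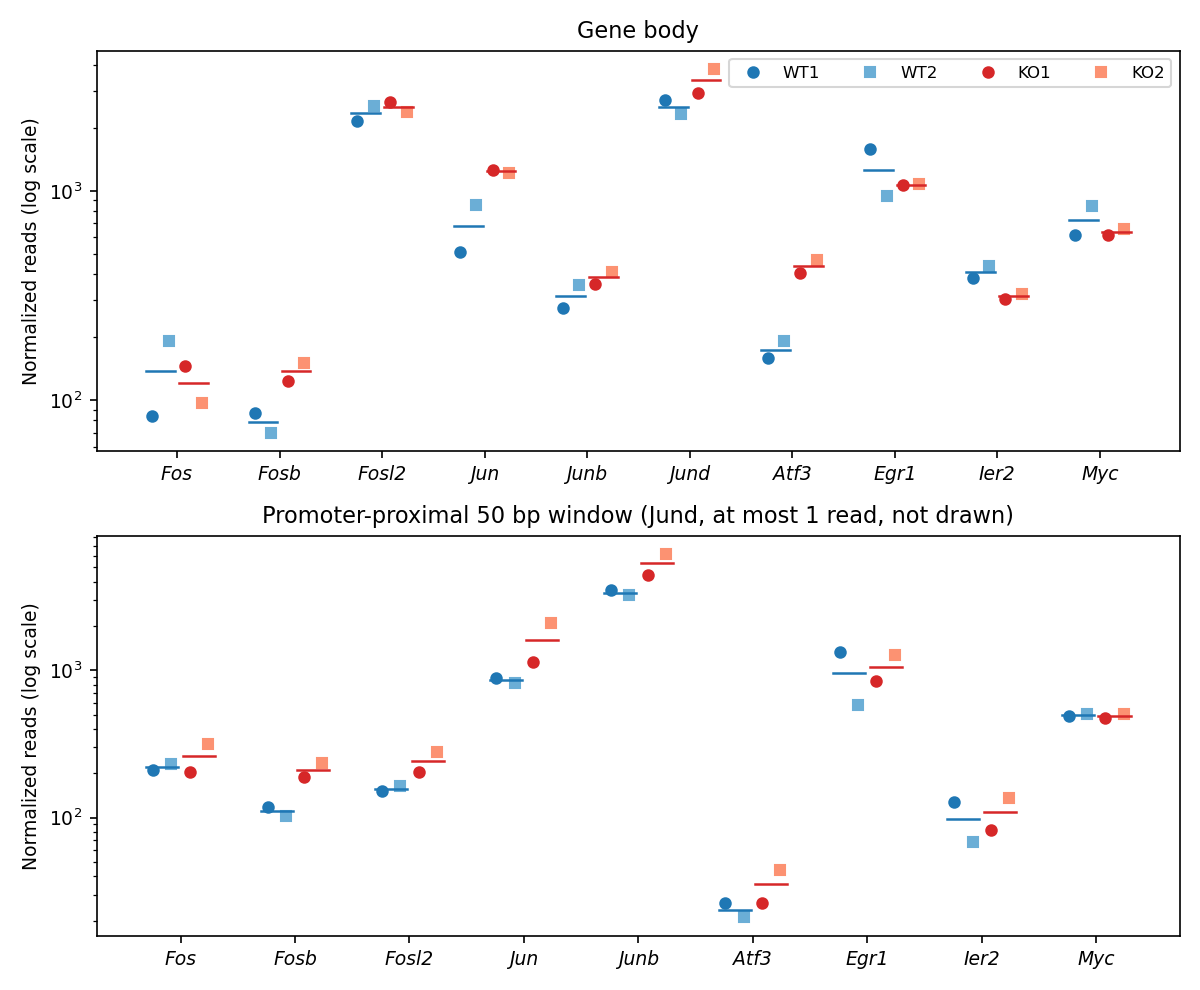
Normalized reads of each member in each library (log scale), in the gene body above and in the promoter-proximal 50 bp window below; blue marks WT, red KO, and short lines the mean of the 2 libraries. In the gene body, the KO points of Atf3, Jun and Fosb lie above both WT points, whereas those of Fos, Fosl2, Egr1 and Myc overlap with WT.

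Atf3 encodes a stress-induced bZIP protein that pairs with JUN proteins and often represses its targets. Its gene body held 158 and 191 normalized reads in WT and 404 and 469 in KO, which is 175 ± 23.1 against 437 ± 46.0 (mean ± SD, n = 2 each). Both KO libraries were more than 2-fold above both WT libraries. The log2 fold change on the log2(value + 1) scale was 1.32 (SE 0.17, adjusted p = 8.43e-07), a 2.50-fold rise and the 98.3rd percentile of active genes. It was past the threshold with each library left out in turn, and its log2 fold change lay between 1.18 and 1.45 in all 17 alternatives. Only without the filter on activity did its adjusted p exceed 0.05, at 0.0574. Per length, Atf3 was at a low level, with 13.2 and 15.9 normalized reads per kb in WT and 33.6 and 39.0 in KO, the 35.1st percentile of active genes by its mean over the 4 libraries.

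Jun encodes c-JUN, the strongest activator among the JUN proteins. Its gene body held 513 and 853 normalized reads in WT and 1257 and 1221 in KO. The KO libraries were alike and both above WT, while the WT libraries differed 1.66-fold from each other, more than in 97.3% of active genes. The log2 fold change was 0.90 (SE 0.16, adjusted p = 8.92e-05). Without WT1, the lower of the WT libraries, it was 0.54 (adjusted p = 0.00181) and thus under the threshold on the fold change.

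Junb, a JUN protein with weaker activity in most settings, held 277 and 355 normalized gene body reads in WT and 361 and 411 in KO. The groups did not overlap, but WT2 and KO1 were nearly equal, and the log2 fold change of 0.30 (SE 0.16, adjusted p = 0.149) did not pass the test. Jund, the JUN protein that is expressed most steadily, held 2710 and 2323 in WT and 2953 and 3828 in KO. Its counted gene body holds the GENCODE start of Jund-201, so these values may include reads from near that start. Both KO libraries were above WT, KO2 by far the most. With a log2 fold change of 0.42 (SE 0.12, adjusted p = 0.00898), Jund passed the threshold on p and not that on the fold. The value rested on single libraries. It was 0.61 without KO1 (adjusted p = 0.0142, past both thresholds), 0.24 without KO2 (adjusted p = 0.255) and 0.31 without WT2 (adjusted p = 0.0645), so without KO2 or WT2 it passed neither threshold.

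Fosb, a FOS protein best known from neurons, held 87.2 and 70 normalized gene body reads in WT and 124 and 150 in KO. Every KO library was above every WT library. The log2 fold change was 0.80 (SE 0.22, adjusted p = 0.00544), a 1.74-fold rise that rested on 70 to 117 counted reads per library. Without KO2 it was 0.66 with an adjusted p of 0.129, so that the call was lost. Fos, the founding member of the family, held 83.8 and 192 in WT and 145 and 97.2 in KO. The KO libraries lay between those of WT, and the log2 fold change was -0.09 (SE 0.28, adjusted p = 0.818). The direction for Fos depended on single libraries, from -0.69 without WT1 (adjusted p = 0.0152, a call down) to 0.50 without WT2. Fosl2, whose product FRA-2 is a longer-lived FOS protein, held 2162 and 2555 in WT and 2647 and 2379 in KO. These groups overlapped, with a log2 fold change of 0.09 (SE 0.12, adjusted p = 0.550).

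Egr1 encodes a zinc finger transcription factor induced by growth signals. It held 1578 and 941 normalized gene body reads in WT and 1065 and 1079.5 in KO. The KO libraries agreed within 1.01-fold and fell between the WT libraries, and the log2 fold change was -0.18 (SE 0.16, adjusted p = 0.389). Ier2, an early response gene of less well known function, held 383 and 440 in WT and 306 and 322 in KO. It was the one member with both KO libraries below WT. Its log2 fold change of -0.39 (SE 0.15, adjusted p = 0.0440) did not reach the threshold on the fold. Myc, the growth factor-responsive bHLH activator, held 616 and 844 in WT and 615 and 657 in KO. WT1 and both KO libraries were alike and WT2 stood above them, with a log2 fold change of -0.18 (SE 0.14, adjusted p = 0.343).

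Compared per length, the members differed widely in gene body level, here as the mean of the 4 libraries. Jund was highest with 1573 normalized reads per kb, the 99.8th percentile of active genes. This level may include reads from near the GENCODE start of Jund-201, which lies inside the counted region. Jund was followed by Ier2 with 695. Jun, Egr1 and Junb came next and overlapped between libraries, and their order differed between the genotypes. In WT, Jun had 235 and 390.0, Egr1 574 and 342, and Junb 329 and 423 normalized reads per kb. In KO, Jun had 575 and 558, Egr1 387 and 393, and Junb 429 and 489.8, so that Jun was the highest of these in KO and not in WT. Myc had 170 and Fosl2 120. Fos had 54.7, Atf3 25.4 and Fosb 17.0, the 23.1st percentile, and each of these overlapped its neighbour between libraries. Jun thus came from the upper part of this order and Atf3 and Fosb from its end. The counted regions also differ in length, from 522 bp in Ier2 to 20368 bp in Fosl2, since the gene body was counted from 1 kb after the TSS.

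In promoter-proximal regions, 2 of the 9 members with reads above the floor rose in KO (Fosb and Jun) and none fell, by limma with the same thresholds. Of all active genes, 25.8% rose and 2.2% fell there, so the share of members is near that of all genes. None of the members was lower at an unadjusted p under 0.05 either, and edgeR and DESeq2 called none down. The KO libraries were both above WT in 5 of 9 members, against 61.9% of active genes, and both below in none, against 6.72%. The median log2 fold change of the 9 members was 0.52, beside 0.56 for active genes. Both calls were lost under a replicate block, which also lowered the number of all active genes called up there from 3282 to 1772. They were lost as well without WT1, WT2 or KO2, where fewer of all active genes were called up too. The losses are therefore not particular to these members.

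**Figure D2:**
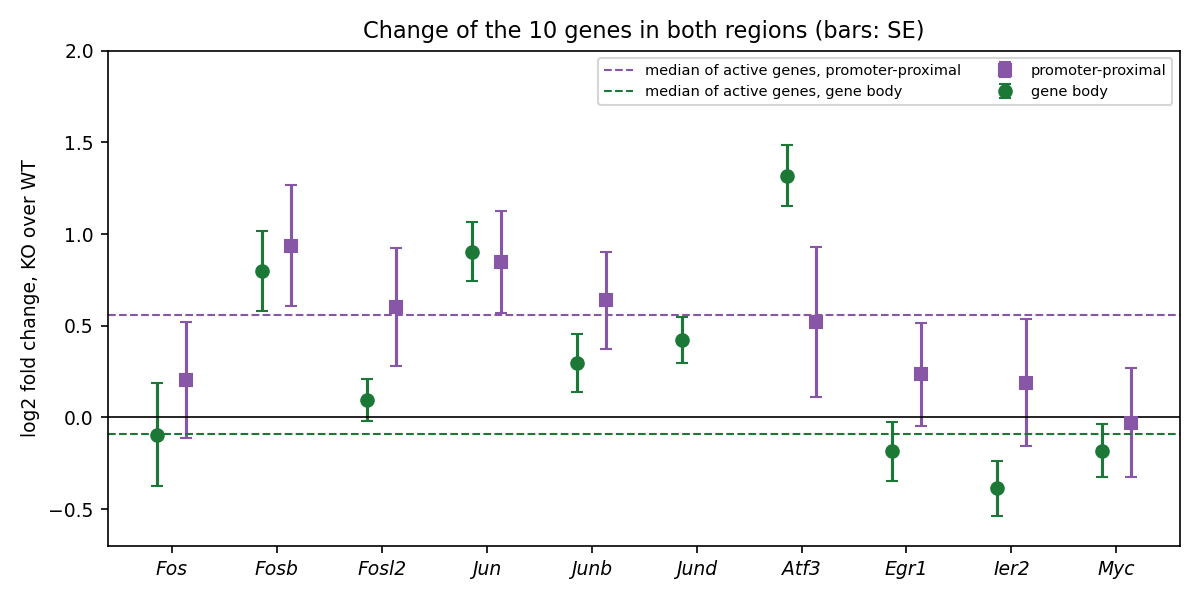
Log2 fold change, KO over WT (y axis), of each member in the gene body (green circles) and the promoter-proximal region (purple squares), with SE bars; dashed lines give the medians of the 12705 active genes, -0.09 and 0.56. Atf3, Jun and Fosb stand above the gene body median, while most promoter-proximal values lie near or under their own median, and scaling each region on its own, which lowers all genes by about that median, puts Fos, Atf3, Egr1 and Ier2 below 0.

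Jun had 880.0 and 826 promoter-proximal reads in WT and 1129.8 and 2085 in KO. KO2 was 1.84-fold above KO1, and both were above WT. The log2 fold change was 0.85 (SE 0.28, adjusted p = 0.0153), which was 0.29 above the median of active genes. Scaling each region on its own by the median of ratios, which sets the median of active genes to 0, gave 0.28 (adjusted p = 0.470). Without KO2 the value was 0.41 (adjusted p = 0.359).

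Fosb had 118 and 102 promoter-proximal reads in WT and 189 and 235 in KO, again without overlap. Its log2 fold change was 0.93 (SE 0.33, adjusted p = 0.0237). When each region was scaled on its own it was 0.37 (adjusted p = 0.339), and with a replicate block its adjusted p was 0.0728 and that of Jun 0.0630.

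Junb had the highest promoter-proximal level of the members, at the 99.7th percentile of active genes. It had 3503 and 3231 reads in WT and 4442 and 6175 in KO. Its groups did not overlap, with a log2 fold change of 0.64 (SE 0.26) and an adjusted p of 0.0539, just outside the threshold. The adjusted p was 0.0389 with edgeR and 0.0509 with DESeq2 on the recovered reads, and 0.137 with a replicate block. Scaling each region on its own left a log2 fold change of 0.067 (adjusted p = 0.907), and without KO2 it was 0.40 (adjusted p = 0.477). Fosl2, with 151 and 163 in WT and 204 and 281 in KO, had a log2 fold change of 0.60 (adjusted p = 0.132). Atf3, with 26.4 and 21 in WT and 26.5 and 44.03 in KO, had 0.52 (adjusted p = 0.311). For Atf3 only 21 to 29 counted reads stood behind each value, and WT1 and KO1 were nearly equal.

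In the remaining members the groups overlapped. Fos had 211 and 231 promoter-proximal reads in WT and 205 and 316 in KO, with a log2 fold change of 0.20 (adjusted p = 0.616). Egr1 had 1329 and 585 in WT and 842 and 1278 in KO, with 0.23 (adjusted p = 0.516). The WT libraries of Egr1 differed 2.27-fold, more than in 98.1% of active genes. Ier2 had 127 and 68 in WT and 82.7 and 137 in KO, with 0.19 (adjusted p = 0.673). Myc was the steadiest, with 491 and 508 in WT and 477 and 503 in KO and a log2 fold change of -0.03 (SE 0.30, adjusted p = 0.949). It lay 0.59 under the median of active genes, at the 14.9th percentile.

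Jund had 1, 0, 1 and 1 counted reads in its promoter-proximal window in WT1, WT2, KO1 and KO2. These are at or under the floor of 3 reads, so no fold change and no pausing index are given. The window was searched within 500 bp of the RefSeq TSS at chr8:70697739. In GENCODE, Jund-201 starts at position 70698949, 1210 bp further downstream, which is outside that window and inside the region counted as gene body. The gene body values of Jund may therefore hold reads from near its start.

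The pausing index, the promoter-proximal density divided by the gene body density, was called up in 0 and down in 0 of 9 members by limma. The shares among active genes were 12.4% up and 0.519% down. At an unadjusted p under 0.05 the count was also 0, and an edgeR interaction term called none. The Cochran-Mantel-Haenszel test, which takes reads and not libraries as the unit and matches libraries by replicate number, called Atf3 down. Its share over all active genes is not given here. Egr1, Fosl2, Junb and Ier2 also had an adjusted p under 0.05 in some alternative setting, but missed the threshold on the fold change. The KO libraries were both above WT in 2 members (Fosb and Fosl2), against 62.8% of active genes, and both below in 1 (Atf3), against 3.49%. The median log2 fold change of the members was 0.30, beside 0.61 for active genes.

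Atf3 had a pausing index of 41.4 and 27.6 in WT and 16.4 and 23.1 in KO. Its log2 fold change was -0.80 (SE 0.43, adjusted p = 0.157), the 1.36th percentile of active genes. Only 21 to 29 counted promoter-proximal reads per library stood behind it, and the gene body of Atf3, which rose in KO, is the denominator. The Cochran-Mantel-Haenszel test gave -0.75 (adjusted p = 0.0276). Fosb, with 172 and 184 in WT and 193 and 198 in KO, had 0.14 (adjusted p = 0.787). Its index was above the median of active genes in every library, where the medians ran from 44.9 to 85.5. Fosl2, with 28.7 and 26.1 in WT and 31.5 and 48.2 in KO, had 0.51 (adjusted p = 0.351).

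Jun had a pausing index of 75.0 and 42.4 in WT and 39.3 and 74.7 in KO, so that the spread within each genotype exceeded the difference between them. Its log2 fold change was -0.06 (SE 0.40, adjusted p = 0.916). Fos, with 119 and 57.0 in WT and 66.6 and 153 in KO, showed the same kind of spread, 2.08-fold in WT and 2.30-fold in KO. Junb ranged from 153 to 252, Egr1 from 34.2 to 65.1 and Myc from 48.4 to 64.1. Ier2 had the lowest index, from 1.63 to 4.45, and its gene body was the shortest. Scaling each region on its own moved the median log2 change of all active genes from 0.61 to -0.03, so members with smaller values than that shift turned negative by construction, and no direction is read from them.

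**Figure D3:**
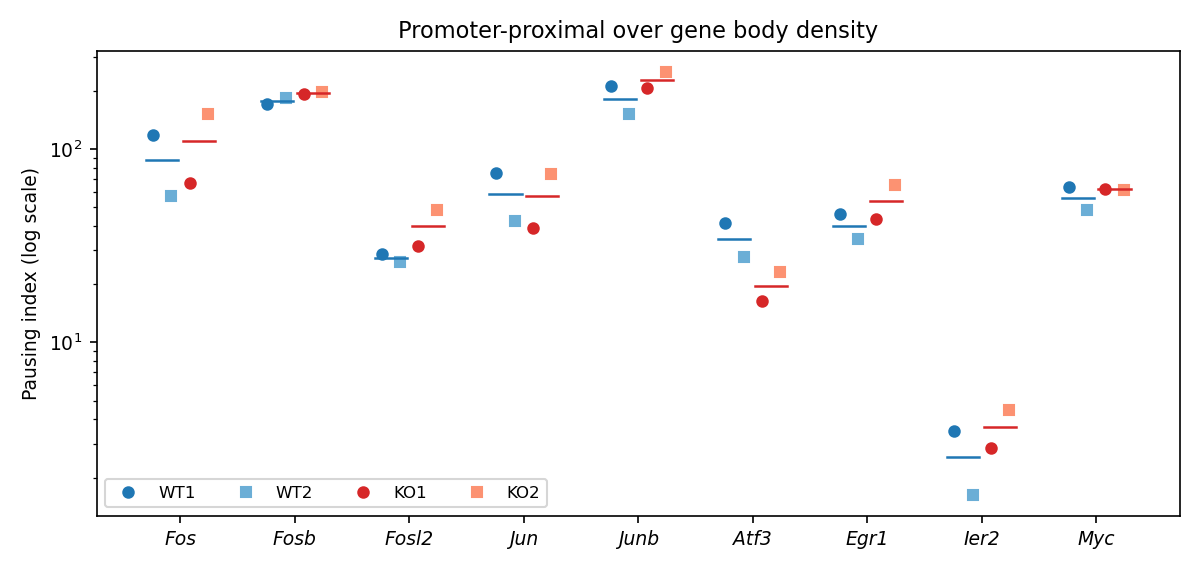
Pausing index (log scale) of 9 members in each library; blue marks WT, red KO, and short lines the mean of the 2 libraries. Atf3 is the one gene with both KO points (16.4 and 23.1) below both WT points (27.6 and 41.4), on 21 to 29 counted promoter-proximal reads per library. Ier2 lies far below the others in all 4 libraries.

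Several members varied more between libraries of one genotype than most genes did. In gene bodies, the ratio of WT1 to WT2 was beyond the 90th percentile of active genes, in either direction, for Fos, Jun, Egr1 and Myc. For Fos it was 2.28-fold, the 99.3rd percentile, and for Egr1 1.68-fold, the 97.4th percentile. The directions differed, since WT1 was lower for Fos, Jun and Myc and higher for Egr1. In KO, the gene body of Fos differed 1.49-fold (the 96.3rd percentile), whereas Jun and Egr1 differed by 1.03-fold and 1.01-fold. The cause of this spread was not tested.

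The gene models limit some values. Jun overlaps the antisense gene Junos, and Jund overlaps the antisense gene Gm11175, whereas no member overlaps another gene on its own strand. PRO-seq reads keep their strand, but how strand entered the gene body counts is not given in the sources used here. Atf3 has a further GENCODE start (Atf3-203) at chr1:191218039, 34706 bp upstream of the RefSeq TSS at 191183333. Reads of a transcript from that start would also fall in the gene body counted for Atf3, and this was not tested.

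Related genes were taken from lists of bZIP partners, EGR family members and NAB corepressors, other immediate-early genes, upstream kinases and factors, and the MYC network. Of 102 genes listed, 96 were active. In gene bodies 19 rose and 11 fell in KO, where 10.4% and 11.4% of active genes did. In promoter-proximal regions 22 rose and 0 fell, beside 25.8% and 2.2% of active genes, so the share that rose was near that of all genes. Their median log2 fold changes were -0.01 in gene bodies and 0.53 in promoter-proximal regions, beside -0.09 and 0.56 for active genes.

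Of 12 active bZIP partners, 5 rose and 0 fell in gene bodies. Maff, a small MAF protein that pairs with other bZIP factors, held 226 and 209 normalized gene body reads in WT and 428 and 484 in KO, a log2 fold change of 1.06 (SE 0.15, adjusted p = 6.54e-06). In the promoter-proximal region Maff rose by 1.86 on the log2 scale (SE 0.37, adjusted p = 2.97e-05), from 35.6 and 27 to 92.3 and 143. Batf2, a partner of JUN proteins in immune cells, rose in both regions, with log2 fold changes of 0.94 in the gene body and 1.19 in the promoter-proximal region. Both genes thus had KO libraries above WT in both regions.

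Of 42 other active immediate-early genes, 11 rose and 6 fell in gene bodies. Gdf15, a secreted stress-induced protein, had the largest rise among these lists at a mean of 50 or more reads. Its gene body held 145 and 88 normalized reads in WT and 387 and 557 in KO, a log2 fold change of 2.03 (SE 0.21, adjusted p = 5.47e-08). Cyr61, a matricellular protein and YAP target, rose by 1.14, and Ier5 by 0.95. In promoter-proximal regions Ier3 rose by 1.38 (adjusted p = 0.000176) and Ier5l by 1.23 (adjusted p = 0.000308).

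Gadd45g, a growth arrest and DNA damage-inducible gene, fell the most. Its gene body held 631 and 1187 normalized reads in WT and 104 and 85.02 in KO, a log2 fold change of -3.19 (SE 0.21, adjusted p = 7.89e-11). Its relative Gadd45b had a log2 fold change of -1.0 (adjusted p = 0.00132). Irs2, the insulin receptor substrate of liver, had -1.03 and Tob1, an antiproliferative factor, had -0.99, both in gene bodies and both called. The list of immediate-early genes thus held a fall larger than any rise among the members.

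Of the EGR family and NAB list, 3 of 6 genes were active, of which 1 rose in gene bodies. Egr2, a close relative of Egr1, rose in the promoter-proximal region from 36.7 and 36 to 94.4 and 103, a log2 fold change of 1.42 (SE 0.37, adjusted p = 0.00197). Of 26 upstream kinases and factors, 2 rose and 3 fell in gene bodies. Map2k6, a kinase that activates p38, had a log2 fold change of -1.0 (adjusted p = 3.34e-06). Of 13 genes of the MYC network, 0 rose and 2 fell. In promoter-proximal regions, 3 of the bZIP partners, 1 of the EGR list, 13 of the other immediate-early genes, 3 of the upstream genes and 2 of the MYC network rose. In the pausing index 8 of the 96 genes rose and 1 fell, beside 12.4% and 0.519% of active genes.

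**Figure D4:**
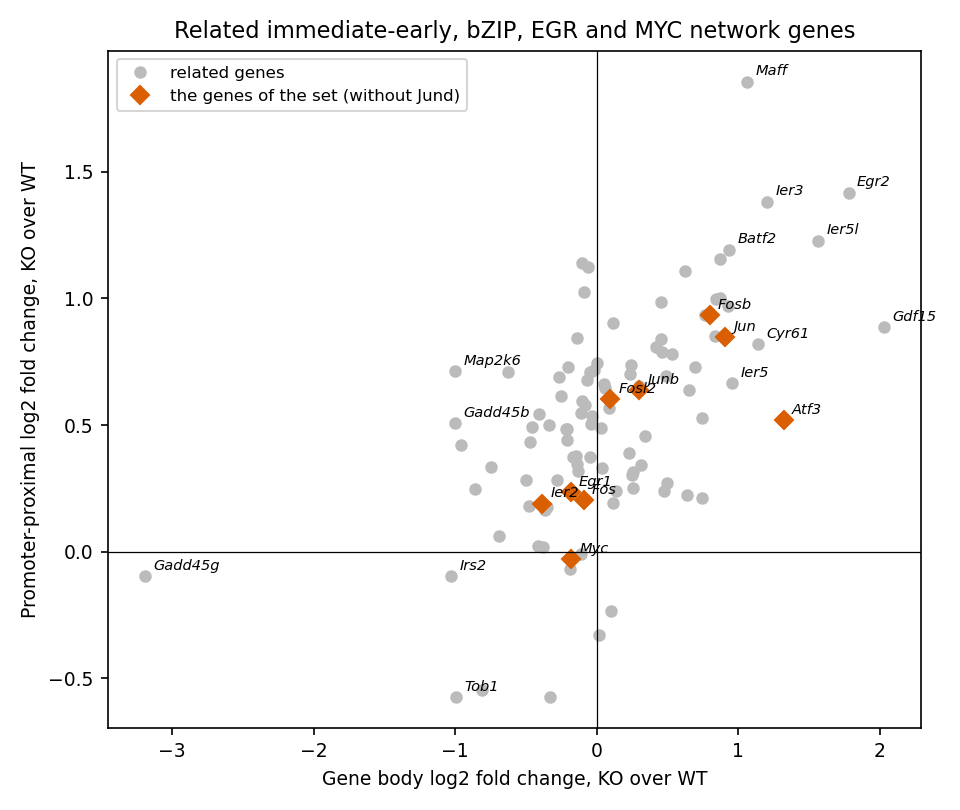
Log2 fold change, KO over WT, in the gene body (x axis) and the promoter-proximal region (y axis) of the 96 active related genes (grey circles) and 9 members (orange diamonds); named are the members and the genes given in the text. Gadd45g lies far left at -3.19, Gdf15 far right at 2.03 and Maff on top at 1.86, with Atf3, Jun and Fosb on the right side and Fos, Egr1, Ier2 and Myc near or left of 0.

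Markers of liver cell types also differed between the genotypes. In bulk nuclei, fewer cells of a type and less transcription per cell cannot be told apart. Among all active genes, 10.4% rose and 11.4% fell in gene bodies. Of 7 hepatocyte markers, 5 fell in gene bodies and 0 rose, and their summed value was 287738 and 294322 in WT and 140622 and 134731 in KO. Of 10 stellate cell markers 9 rose, with sums of 10483 and 11968 in WT and 23749 and 21891 in KO. Of 9 endothelial markers 6 rose, with sums of 60656 and 65832 in WT and 113243 and 101323 in KO. The sums of the stellate and endothelial lists were thus higher in KO, whereas those of the cholangiocyte and erythroid lists, given below, were lower. The part of any cell type in the gene body rises of Jun, Fosb and Atf3 was not tested.

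Of 10 Kupffer and myeloid markers 0 were called in either direction in gene bodies, with sums of 22729 and 23215 in WT and 29906 and 24630 in KO. Of 4 active cholangiocyte markers 2 fell, and the 6 listed summed to 3499 and 3010 in WT and 1409 and 1359 in KO. All 5 active erythroid markers fell, and the 6 listed summed to 895 and 1126 in WT and 402 and 334 in KO. Of 6 lymphocyte markers 2 rose and 2 fell, with sums of 624 and 735 in WT and 757 and 695 in KO. No marker of any list was at 0 in the gene body in all 4 libraries, and the hepatocyte list had the largest sum in each library.

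The deposited list of 2282 enhancers was called on the pooled reads of the 4 libraries and holds no value per library, so it gives positions and not changes. For 4 of the 10 members a listed enhancer had the member as its closest gene, and the same held for 10.9% of active genes. Fos was the closest gene of 5 enhancers, which 0.425% of active genes matched or exceeded, and they lay 4208, 10657, 17048, 28200 and 57881 bp from it. Jun was the closest gene of 3, at 53511, 101026 and 107974 bp, and 1.60% of active genes had 3 or more. Among the members, Fos was the closest gene of the most enhancers. Fos was called in neither region and Jun in both, and a link between enhancers and these calls was not tested.

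Fosb was the closest gene of 1 enhancer, chr7:19326644-19327519, at 16599 bp. Atf3 was the closest gene of 1 enhancer of 27306 bp, chr1:191223873-191251179, at a distance of 40540 bp from the RefSeq TSS but only 5834 bp from the upstream GENCODE start. Links from published interaction data tied more enhancers to the members, 54 distinct ones in all with the closest genes included. Of these, 40 were on another chromosome than the member, and no weight is put on them here.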

How the data were processed

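PRO-seq of day 14 mouse liver nuclei gave 2 WT and 2 Hdac3 KO libraries, grouped by their labels. The authors trimmed reads with cutadapt, aligned them to mm10 with Bowtie2, dropped ribosomal and poorly mapped reads, and counted with NRSA. The promoter-proximal value is the 50 bp window with most reads within 500 bp of the TSS, and the gene body starts 1 kb (1000 bp) after it. Deposited WT2 values are counts, since its factor is 1. The deposited values of WT1, KO1 and KO2 are normalized signal, that is counts times a factor, and densities are deposited as signal per bp. Division by the factor gave whole reads for 100% of values. The deposited table has 20820 rows, and 118 symbols had several.

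log2(value + 1) was compared with limma 3.58.1 (trend, R 4.3.3), leaving the replicate number out. P-values were adjusted over the 12705 active genes after Benjamini and Hochberg, with calls at adjusted p under 0.05 and absolute log2 fold change over 0.6. For the pausing index, 1 was added to each region's value before division by its length. edgeR 4.0.16 (quasi-likelihood) and DESeq2 1.42.0 were run on the recovered reads as alternatives, with other scalings, pseudocounts (0.1, 10), filters, transcript choice, the replicate number as a block, and libraries left out singly. An exact permutation test of 2 against 2 libraries cannot go below p = 0.333 (two-sided). Scripts were tested on simulated data. Tables were made with Python 3.11.15, numpy 2.4.6 and pandas 2.3.3, and plots with matplotlib 3.10.9.

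The members and gene lists were chosen with earlier results of these data known. Named in the text are all members and, of the related genes, those called with both KO libraries on one side of both WT libraries, at most the 5 largest rises and 5 largest falls per region at a mean of 50 reads. The labels give replicate numbers, but nothing says that they mark pairs, and the libraries are pools of nuclei, so p-values do not measure the spread between mice. limma moderates the variance of each gene toward a trend over all active genes. The SE and p-value of a gene can therefore be smaller or larger than the spread of its own libraries would give. Intervals between genotypes rest on n = 2, and depth ranged from 16628518 to 26190040 reads. A floor of 3 counts was used. Separate reads of single enhancers were not analysed here.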

Additional observations from a re-analysis of the deposited data

How the results depend on the processing

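Of the log2 fold changes of the members recomputed under other settings, 418 kept their direction and stayed called or not called, where a call needs both thresholds. Of the others, 19 lost the call, 8 gained it and 40 turned sign, none of which had been called at first. The number of members called up in promoter-proximal regions (2) was lower without WT1, WT2 or KO2, in fits that called up fewer of all active genes too. It was 0 in promoter-proximal regions with median-of-ratios or TMM scaling within each region, with no filter on activity and with a replicate block. The block lowered the number of active genes called up there from 3282 to 1772, scaling within each region to 634 or 638, and no filter to 0. The number of members called up in gene bodies (3) was 0 with no filter, and 3 with the block. The number called down in gene bodies (0) was 1 with no threshold on the fold change (Ier2), and 0 to 1 with each library left out (Fos, without WT1). The number called down in the pausing index (0) was 1 by the Cochran-Mantel-Haenszel test (Atf3). The cause of these shifts was not tested.

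Median-of-ratios and TMM scaling within each region lowered the promoter-proximal log2 fold change of Fos to -0.37 and -0.37, Atf3 to -0.032 and -0.033, Egr1 to -0.34 and -0.34, and Ier2 to -0.38 and -0.38. This scaling lowers all genes by about the same amount. In the pausing index, Fos came to -0.35 and -0.35, Fosb to -0.51 and -0.51, Fosl2 to -0.14 and -0.14, Junb to -0.31 and -0.31, Egr1 to -0.23 and -0.23, Ier2 to -0.069 and -0.067, and Myc to -0.50 and -0.50. Gene body scaling in both regions gave Myc 0.053 in the promoter-proximal region, and the Cochran-Mantel-Haenszel test gave Jun 0.022 in the pausing index.

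With each library left out, the promoter-proximal values ran from -0.11 to 0.51 for Fos, -0.36 to 0.83 for Egr1, -0.26 to 0.64 for Ier2 and -0.065 to 0.0089 for Myc. The gene body values ran from -0.69 to 0.50 for Fos, -0.026 to 0.22 for Fosl2, -0.56 to 0.19 for Egr1 and -0.41 to 0.046 for Myc. The pausing index values ran from -0.30 to 0.90 for Fos, -0.52 to 0.41 for Jun and -0.049 to 0.36 for Myc.

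Same-numbered libraries did not deviate together (r = -0.11 in promoter-proximal regions, 0.02 in gene bodies, -0.07 in the pausing index), so the block follows a shared number only. With the pairing crossed, which was added after seeing the data, 3 members were called up in promoter-proximal regions, 3 in gene bodies and 0 in the pausing index. Of 12705 active genes, this setting called 4861 up in promoter-proximal regions, beside 3282 without it, and 1330 in gene bodies, beside 1324. The further promoter-proximal call, Junb, thus came with more calls over all genes. Depth limits Atf3 and Jund in promoter-proximal regions most.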
